A study of Mus musculus with 28 samples.

Results

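The genes described here are 9 targets and inhibitors of the bone morphogenetic protein (BMP) and transforming growth factor beta (TGF-beta) pathways. They were taken by name from the 23951 gene symbols of the deposited expression tables: the targets Id1, Id2 and Id3, the inhibitory Smads Smad6 and Smad7, the membrane inhibitor Bambi, the secreted inhibitor Grem1 and the nuclear co-repressors Skil and Tgif2. All samples came from a mouse fibroblast line, NIH/3T3 Tet-On 3G, immortalised and equipped with a doxycycline-responsive transactivator. Polyadenylated RNA was sequenced from 2 control clones, transduced with GFP-Luciferase/OFP-Luciferase, and from 3 clones with knockdown of the histone variant H3.3, which carry the construct pair OFP-H3.3A/GFP-H3.3B. The labels' treatment field for these 5 clones names FLAG/HA-H3.3 fibroblasts given doxycycline, and their transduction field names the luciferase or H3.3 constructs alone. RBBP4 and MTA1, subunits of the nucleosome remodelling and deacetylase complex (NuRD), were mapped by chromatin immunoprecipitation (ChIP-seq) in control and knockdown cells of the same construct pairs, with 1 library per protein and condition. CHD4, HDAC1, HDAC2, MBD2/3, MTA1, RBBP4, H3K4me3, H3K9ac and H3K27ac were mapped in unmodified cells with 1 library each. HA-tagged H3.3 was mapped in 2 replicates of cells carrying an HA/FLAG-H3.3 construct, cultured with aphidicolin, which blocks DNA replication, and doxycycline. A sequential ChIP took chromatin of such cells, given doxycycline, by FLAG and then by RBBP4. The labels do not say whether the clones came from separate transductions, so p-values measure the spread between these clones.

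BMP and TGF-beta ligands bind serine/threonine kinase receptors that phosphorylate Smad proteins, which enter the nucleus with Smad4 and act on target genes. The Id genes, direct targets of BMP signalling, encode helix-loop-helix proteins that lack a DNA-binding region and hold basic helix-loop-helix factors away from DNA. Smad6 and Smad7 are themselves induced by the pathways and block the receptors in a feedback loop, and in fibroblasts TGF-beta is best known for driving matrix genes. RBBP4 is a histone-binding subunit of NuRD and of other chromatin complexes.

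In the deposited tables (mm9) the targets lie at chr2:152561987-152563146 (Id1), chr12:25778664-25780957 (Id2) and chr4:135699737-135701307 (Id3), and Smad6 at chr9:63800883-63869866. Of the other inhibitors Grem1 lies at chr2:113588832-113598805, Skil at chr3:30993980-31021845 and Tgif2 at chr2:156665743-156681305. The Id genes are short, at 1160 to 2294 bp, and Smad6 is the longest locus, at 68984 bp.

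Promoter sequences from RefSeq (GRCm38.p6) were at hand for 5 of the 9 genes. The stretches shown here are the 250 bases before the start of the 3 targets Id2, Id3 and Smad6, which shared a clone pattern described below, and of Tgif2, at which RBBP4 peaks were listed. They lie at chr12:25096093-25096342 (minus strand), chr4:136143572-136143821 (plus), chr9:64022060-64022309 (minus) and chr2:156839757-156840006 (plus). Letters run 5′ to 3′ toward the gene, and capitals mark CAGAC, which holds the short Smad-binding element, and GGCGCC, a GC-rich Smad motif, each searched on both strands (CAGAC reads GTCTG on the other strand, and the motifs do not overlap).
Id2: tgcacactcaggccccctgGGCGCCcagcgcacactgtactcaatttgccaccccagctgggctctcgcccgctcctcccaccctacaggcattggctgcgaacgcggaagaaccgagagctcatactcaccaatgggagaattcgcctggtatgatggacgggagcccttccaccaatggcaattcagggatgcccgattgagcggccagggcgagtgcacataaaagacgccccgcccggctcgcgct
Id3: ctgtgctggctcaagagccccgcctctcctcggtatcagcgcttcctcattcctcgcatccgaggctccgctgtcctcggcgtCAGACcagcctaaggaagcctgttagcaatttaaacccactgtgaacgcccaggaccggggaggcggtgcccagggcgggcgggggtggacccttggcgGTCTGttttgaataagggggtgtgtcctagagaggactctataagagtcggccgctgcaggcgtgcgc
Smad6: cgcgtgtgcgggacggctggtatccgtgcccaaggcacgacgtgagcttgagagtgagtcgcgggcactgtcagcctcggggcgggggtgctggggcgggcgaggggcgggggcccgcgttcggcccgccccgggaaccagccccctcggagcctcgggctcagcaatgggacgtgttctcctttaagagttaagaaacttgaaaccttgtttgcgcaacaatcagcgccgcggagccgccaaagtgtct
Tgif2: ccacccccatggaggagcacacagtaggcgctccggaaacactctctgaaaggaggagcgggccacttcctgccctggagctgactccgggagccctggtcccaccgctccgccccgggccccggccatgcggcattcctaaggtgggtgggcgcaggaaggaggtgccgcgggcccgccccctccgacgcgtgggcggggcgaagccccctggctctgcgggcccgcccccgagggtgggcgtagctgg
Id3 held CAGAC at 167 to 163 and, on the other strand, at 68 to 64 bases before its start. Id2 held GGCGCC at 231 to 226 bases before its start. Smad6 and Tgif2 held neither motif in this window. The fifth promoter, that of Grem1 (chr2:113758649-113758898, minus strand), held both, CAGAC at 219 to 215 and GGCGCC at 78 to 73 bases before its start, although the gene was hardly detected. Of 27025 promoters of the same length 42.1% held CAGAC and 9.54% GGCGCC, so a match is a description of these letters alone. The 4 stretches were rich in CpG: Id2 and Id3 had 18 CpG each, Tgif2 22 and Smad6 27, against a median of 6 over all promoters.

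The RNA libraries held an estimated 18.2 to 26.5 M fragments. Both H3.3 genes were lower in every knockdown clone than in either control. In FPKM, which scales fragments to transcript length and to library size, control clones 1 and 2 had 128.3 and 143.5 for H3f3a, and knockdown clones 1, 2 and 3 had 71.8, 35.6 and 5.05. For H3f3b the controls had 249.4 and 237.1, and these knockdown clones 144.4, 104.3 and 51.7. Depletion was strongest in knockdown clone 3, but the limma adjusted p was 0.516 for H3f3a and 0.469 for H3f3b. Knockdown clone 1 stood apart on the first principal component, which carried 39.1% of the variance, at 72.6 against -40.1 to 0.59 for the other 4 clones. Knockdown clone 3 stood apart on the second, which carried 28.8%, at -57.2 against -5.64 to 40.6. All 10 fibroblast markers were expressed (summed FPKM 5546 to 5728 in controls, 7729 to 8561 in knockdown clones). These sums are carried by a few abundant genes, Col1a1 and Col1a2 among them, and do not describe each marker. Col1a1 and Col1a2 were higher in each knockdown clone than in either control, but several other markers were lower in knockdown clone 3 than in either control. Of the markers of other cell types Epcam, Myod1 and Sox2 were at 0 in all clones. The summed epithelial markers, 1 of 5 of which had a mean FPKM of at least 1, ran from 2.37 to 2.66 in controls and from 0.703 to 6.51 in knockdown clones. Sums ran from 4.78 to 8.43 and from 1.34 to 10.8 for endothelial markers (2 of 4), from 9.61 to 14.9 and from 11.9 to 21.2 for haematopoietic markers (3 of 4), from 45.9 to 55.8 and from 26.5 to 45.4 for skeletal muscle markers (2 of 4) and from 0.547 to 0.827 and from 0.448 to 1.53 for neural markers (0 of 4). Their part in the results was not tested.

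None of the 8 listed genes that were tested, all but Grem1, was called different between the groups, but their levels spread widely between clones of the same group. The 5 target genes Id1, Id2, Id3, Smad6 and Smad7 were all highest in knockdown clone 3, the clone with the lowest H3f3a and H3f3b and the one apart on the second principal component. In 4 of the 5 (all but Id1) that clone was more than 2 times above each other clone, a limit set after the values were seen. Among the 8 listed genes that were tested the counts were thus 5 and 4. Over the 11728 genes whose mean FPKM reached 1, knockdown clone 3 was highest in 19.5% and above each other clone by that limit in 1.66%. Bambi, Skil and Tgif2 were lower in each knockdown clone than in either control clone, a common pattern that 21.2% of all tested genes showed. Grem1 was hardly detected. In bulk RNA a smaller share of expressing cells and less RNA per cell cannot be told apart.

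**Figure D1:**
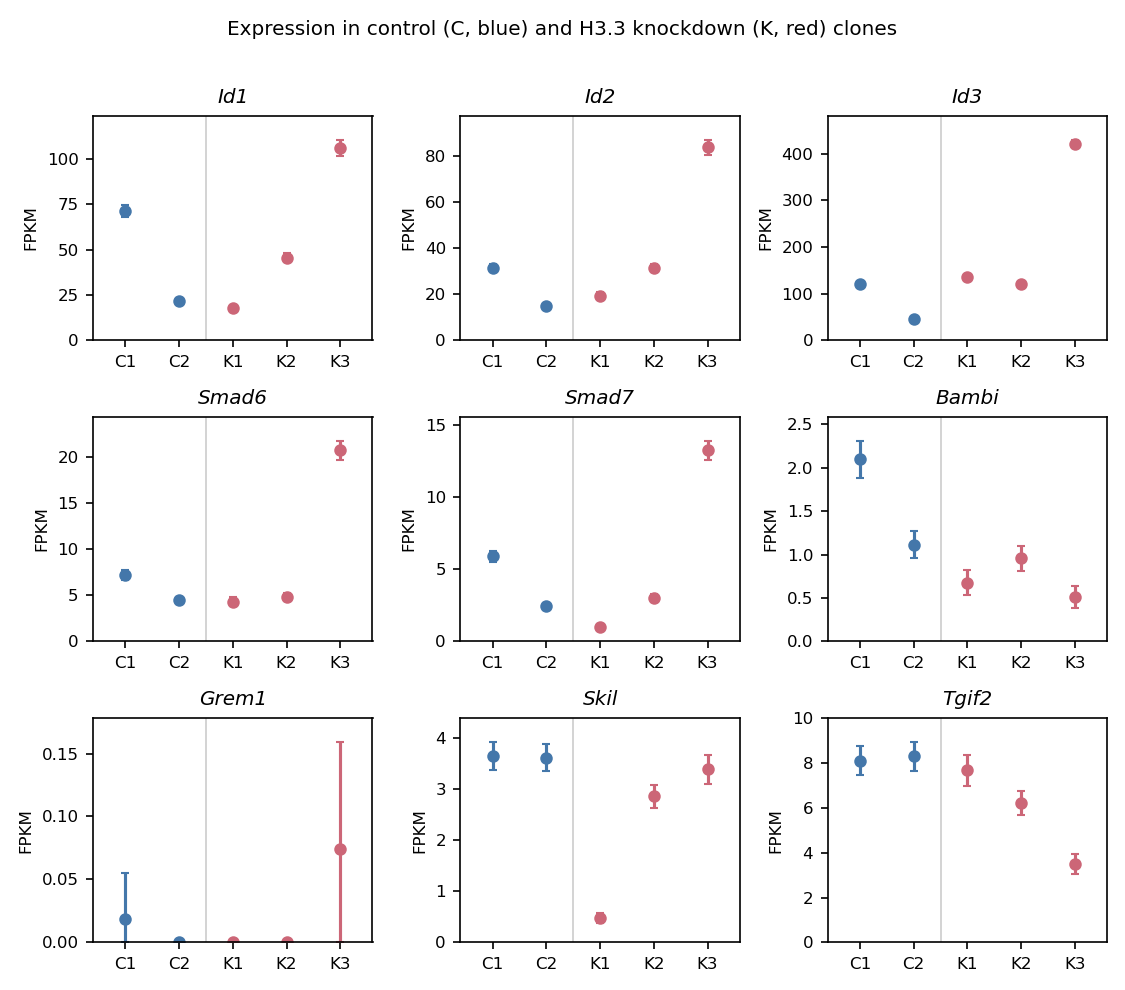
FPKM of each gene in control clones 1 and 2 (C1, C2, blue) and knockdown clones 1 to 3 (K1 to K3, red), with the deposited confidence bounds of each library as bars. Id1, Id2, Id3, Smad6 and Smad7 peak in K3, while the knockdown points of Bambi, Skil and Tgif2 lie under both control points.

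Id3 was the most abundant of the 9 genes. Control clones 1 and 2 had 121.7 and 45.4 FPKM, and knockdown clones 1, 2 and 3 had 135.1, 120.8 and 421.2. Knockdown clone 3 was 3.12 times above the next highest clone, whereas knockdown clone 2 lay just under control clone 1, so the groups overlapped. The log2 difference, knockdown minus control on the log2(FPKM + 1) scale, was 1.34 (SE 0.70, limma adjusted p = 0.547), and it was 0.77 without knockdown clone 3 and 0.64 without control clone 2.

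Id2 had 31.2 and 14.7 FPKM in the controls and 19.4, 31.5 and 83.9 in the knockdown clones. Only clone 3 stood clear of control clone 1, by a factor of 2.66 over the next highest clone, and the groups overlapped. The log2 difference of 0.77 (SE 0.67, limma adjusted p = 0.667) was 0.19 without knockdown clone 3.

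Id1 showed no common direction in the knockdown clones. It had 71.3 and 21.6 FPKM in the controls and 17.5, 45.6 and 106.1 in the knockdown clones, so that knockdown clone 1 was the lowest and clone 3 the highest of all 5. The log2 difference was 0.16 (SE 0.86, limma adjusted p = 0.946), and it turned to -0.46 without knockdown clone 3 and to -0.68 without control clone 2.

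The inhibitory Smads, with mean FPKM of 8.28 (Smad6) and 5.10 (Smad7), were less abundant than the Id genes (36.2 to 168.9) and shared the high value in knockdown clone 3. Smad6, which acts mainly against BMP receptors, had 7.19 and 4.43 FPKM in the controls and 4.31, 4.79 and 20.7 in the knockdown clones. Knockdown clones 1 and 2 lay at or near the level of control clone 2, and clone 3 was 2.88 times above the next highest clone. The groups overlapped, with a log2 difference of 0.39 (SE 0.67, limma adjusted p = 0.827) that turned to -0.27 without knockdown clone 3.

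Smad7, which acts against both TGF-beta and BMP receptors, spanned the widest range of the 8 tested genes, 13.3 times from the lowest to the highest clone. Its locus is chr18:75527019-75555588 (mm9). It had 5.89 and 2.43 FPKM in the controls and 0.991, 2.99 and 13.2 in the knockdown clones. The lowest value was that of knockdown clone 1 and the highest that of clone 3, so the groups overlapped. The log2 difference was -0.01 (SE 0.86, limma adjusted p = 0.998), 0.63 without knockdown clone 1 and -0.79 without knockdown clone 3.

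The 2 control clones also differed from each other in these genes. Control clone 1 exceeded control clone 2 by 3.29 times for Id1, 2.68 for Id3, 2.43 for Smad7, 2.12 for Id2 and 1.63 for Smad6. Against the control mean, knockdown clone 3 was at 5.04 times for Id3, 3.65 for Id2, 3.56 for Smad6, 3.18 for Smad7 and 2.28 for Id1. Thresholds for the following counts were set after these values were seen. Over the 11728 genes whose mean FPKM reached 1, knockdown clone 3 was the highest clone in 19.5%, and more than 2 times above each other clone in 1.66%. Among the 8 listed genes that reached this mean the counts were 5 and 4. Control clone 1 was more than 1.5 times above control clone 2 in 9.5% of all tested genes and in 6 of these 8.

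Bambi, a membrane protein that resembles a type I receptor without its kinase domain, was weakly expressed (chr18:3507955-3516402, mm9). Its FPKM was 2.1 and 1.11 in the controls and 0.675, 0.958 and 0.511 in the knockdown clones. All 3 knockdown clones lay below both controls, but control clone 2 and knockdown clone 2 differed by less than the control clones did. The log2 difference was -0.59 (SE 0.29, limma adjusted p = 0.529), and it ran from -0.86 to -0.31 with 1 clone left out. Estimated fragments numbered 67.9 to 384.6 per library.

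Grem1, a secreted protein that binds BMP ligands, was listed at 0 in control clone 2 and in knockdown clones 1 and 2. It had 0.0183 FPKM in control clone 1 and 0.0739 in knockdown clone 3, which correspond to about 1 and 3 fragments. It stayed below the minimum for the test, so no difference was computed.

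Skil encodes SnoN, a co-repressor that binds Smad proteins on DNA. Its FPKM was 3.66 and 3.62 in the controls and 0.480, 2.86 and 3.39 in the knockdown clones. The knockdown clones lay below both controls, yet clone 3 was at 0.933 times the control mean, clone 2 at 0.787 times and clone 1 at 0.132 times. The log2 difference was -0.66 (SE 0.51, limma adjusted p = 0.633), and -0.17 without knockdown clone 1.

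Tgif2, a homeodomain co-repressor of TGF-beta target genes, was the steadiest of the tested genes, with a highest value 2.37 times its lowest. It had 8.12 and 8.31 FPKM in the controls and 7.68, 6.22 and 3.50 in the knockdown clones. The control clones were close together and knockdown clone 3 was lowest, at 0.426 times the control mean. The log2 difference was -0.49 (SE 0.31, limma adjusted p = 0.579), and -0.22 without knockdown clone 3. Its locus overlaps 5430405H02Rik. Strand is not stated and overlap of exons was not checked, so the Tgif2 values may include reads of that gene.

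Of all 11728 tested genes limma called 0.0341% at an adjusted p under 0.05 (4 genes: 1 higher, 0.00853%, and 3 lower, 0.0256%), and of the 8 listed genes 0. At an unadjusted p under 0.05 the counts were 1150 and 0. Without knockdown clone 1, which stood apart on the first component, the log2 difference was 0.80 for Id1, 1.22 for Id2, 1.59 for Id3, 0.75 for Smad6, -0.57 for Bambi and -0.69 for Tgif2. Without knockdown clone 3, which stood apart on the second component, it was -0.50 for Bambi and -0.96 for Skil, beside the values given above for the other 6 genes. The median log2 difference of the 8 genes with all clones was 0.08, with 4 above and 4 below 0, against -0.10 over all tested genes, of which 4707 were above and 7021 below 0. Knockdown clones lay wholly below both controls in 21.2% of all tested genes and in 3 of these 8, and wholly above them in 11.4% and in 0 of 8.

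**Figure D2:**
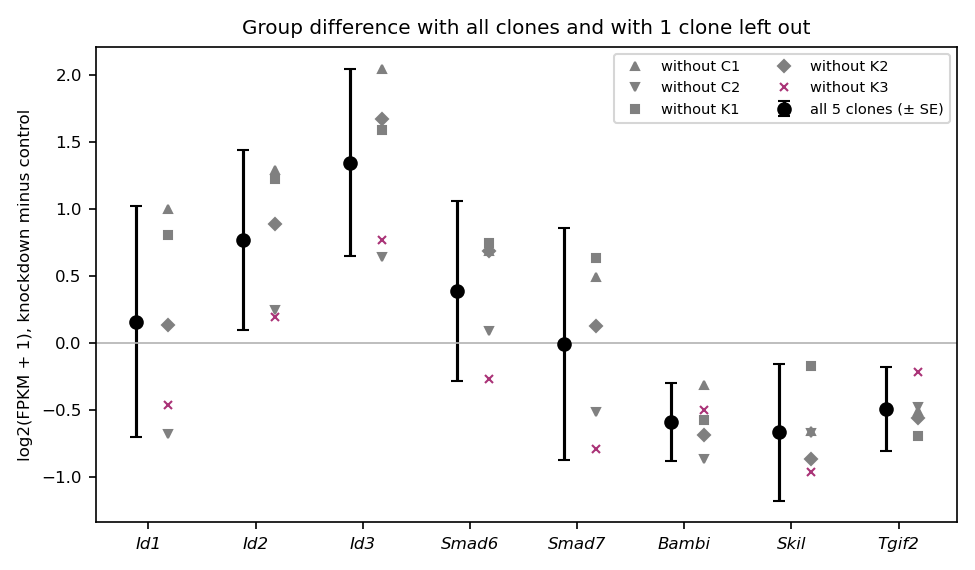
Log2 difference, knockdown minus control on the log2(FPKM + 1) scale, with all 5 clones (black, bars are the SE) and with 1 clone left out (grey and purple marks). Id1, Smad6 and Smad7 cross 0 with different clones left out, while Bambi, Skil and Tgif2 stay below 0 and Id2 and Id3 above it.

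The genes with the most similar clone profiles were sought among 6858 genes whose mean FPKM reached 10, by the Euclidean distance of the centred log2(FPKM + 1) values over the 5 clones. The 2 nearest of so many genes fall below the median distance by construction. The medians therefore give the scale only, and whether a likeness is closer than such a search would give was not tested. Closest to Id1 were Snora68 (distance 0.26) and Cyr61 (0.59), against a median of 2.18 over all genes compared. Id2 was closest to Clcf1 (0.41) and Apln (0.49, median 1.97). For Id3 these were Rpl30 (0.57) and Id2 itself (0.90, median 2.42), so a second listed gene was among its nearest profiles. Smad6 was closest to Palld (0.39) and Cryab (0.45, median 1.83), and Smad7 to Snord16a (0.56) and Rnd1 (0.64, median 2.18). Bambi was closest to Mllt1 (0.10) and Slc25a22 (0.12, median 0.91), Skil to Jade1 (0.16) and Hspa9 (0.20, median 1.39), and Tgif2 to Rchy1 (0.11) and Lrch4 (0.13, median 1.07). Cryab, a small heat shock protein, shows the shape of the Smad6 profile at a higher level: 97.5 and 95.5 FPKM in the controls and 85.7, 89.9 and 295.1 in the knockdown clones.

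The rest of the pathway was read through 8 lists of 95 genes, of which 61 were tested. None of the 61 passed the test, 5 had an unadjusted p under 0.05 (Acvr2b, Tgfbr1, Smurf1, Tob1 and Col1a2), and the median log2 difference was -0.05. Over all 11728 tested genes 1150 had such a p, so 5 of 61 is near or below that share and is not a result about the pathway. The counts of higher and lower genes below stand beside 4707 higher and 7021 lower among all tested genes. Knockdown clone 3 was the highest clone in 13 of the 61 and more than 2 times above each other clone in 3. Over all tested genes these shares were 19.5% and 1.66%, so 13 of 61 is near the background. The 3 include Smad9 and Atoh8, which are singled out for this after their values were seen. Smad9, a BMP signal carrier, had 2.14 and 1.28 FPKM in the controls and 1.69, 2.33 and 7.49 in the knockdown clones. Atoh8, a helix-loop-helix factor gene, had 45.1 and 28.0 in the controls and 42.9, 44.5 and 94.3 in the knockdown clones.

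Few BMP ligand genes were expressed. Of 16 BMP and growth differentiation factor ligands 2 were tested, Gdf11 (log2 difference 0.19) and Gdf5 (-0.94). Bmp2 was listed at 0 in all clones and Bmp4 had a mean FPKM of 0.086. Of 14 TGF-beta and activin ligands and latency proteins 9 were tested, 5 higher and 4 lower in the knockdown mean, with a median of 0.00. The most abundant were the latency proteins Ltbp3 (log2 difference 0.20), Ltbp1 (-0.27) and Ltbp2 (-0.44). The ligand genes Tgfb1 (-0.12), Tgfb2 (0.06), Tgfb3 (0.28), Inhba (-0.88) and Inha (0.05) were expressed as well. Tgfb1 had 14.5 and 19.9 FPKM in the controls and 17.0, 16.3 and 13.6 in the knockdown clones, so the groups overlapped.

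Receptor genes had a median of -0.30, with 2 of 10 tested genes higher and 8 lower. The most abundant were Tgfbr2 (0.26), Tgfbr3 (-0.82), the co-receptor betaglycan, and Bmpr1a (-0.01). Acvr2b, a type II activin receptor named after its values were seen, had 5.26 and 5.73 FPKM in the controls and 1.68, 1.65 and 1.98 in the knockdown clones. These groups were well apart, with a log2 difference of -1.23 (SE 0.19), but the limma adjusted p over all genes was 0.307. Tgfbr1, the type I TGF-beta receptor, likewise chosen afterwards, had 6.69 and 7.56 FPKM in the controls and 4.67, 3.97 and 3.47 in the knockdown clones. Its log2 difference was -0.69 (SE 0.19), with an adjusted p from limma of 0.45.

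All 6 signal-carrying Smads were tested, 1 higher and 5 lower (median -0.19), and the most abundant were Smad4 (-0.23), Smad3 (-0.15) and Smad1 (-0.24). Among 9 tested secreted inhibitors other than Grem1, 5 were higher and 4 lower (median 0.02). The most abundant were Fstl1 (0.47) and Twsg1 (0.23). Of 9 other intracellular inhibitors 3 were higher and 6 lower (median -0.36), with Strap at -0.59, Ski at 0.19 and Tgif1, the paralogue of Tgif2, at -0.36. Smurf1, a ubiquitin ligase for Smads and receptors chosen after its values were seen, had 29.3 and 29.0 FPKM in the controls and 16.0, 19.4 and 18.6 in the knockdown clones. Its log2 difference was -0.67 (SE 0.18), with an adjusted p from limma of 0.447.

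Of 5 other tested BMP targets 3 were higher and 2 lower (median 0.16): Atoh8 had 0.65, Runx2 0.24 and Id4, the fourth Id gene, 0.16. Of 11 other tested TGF-beta targets 8 were higher and 3 lower (median 0.32), with the matrix genes Col1a2 at 0.93, Col1a1 at 0.68 and Fn1 at -0.56. Col1a2 had 667.7 and 776.4 FPKM in the controls and 1690, 1390 and 1109 in the knockdown clones, so the groups did not overlap, and its limma adjusted p was 0.447. Here knockdown clone 3 was the lowest knockdown clone.

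**Figure D3:**
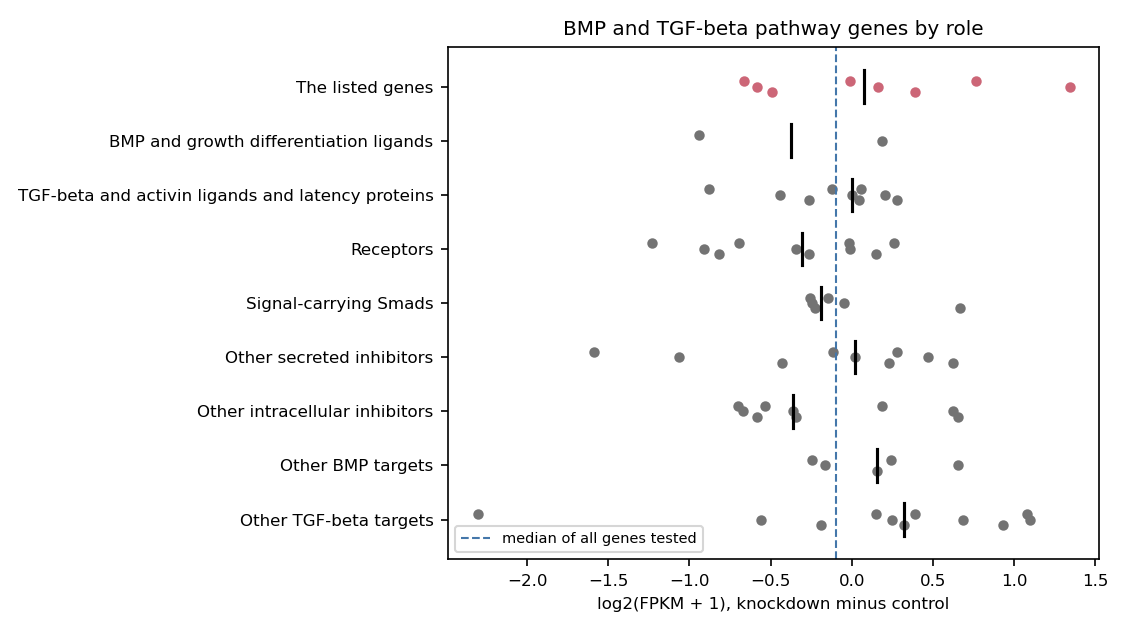
Log2 difference, knockdown minus control on the log2(FPKM + 1) scale, for each tested gene of the 9 listed genes (red) and of the 8 pathway lists (grey), with the median of each list (black bar) and of all tested genes (dashed line). List medians run from -0.37 to 0.32 and single genes from -2.30 to 1.34.

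RBBP4 peaks were listed within 2 kb of either end of the locus for 4 of the 9 genes in control cells, Id1, Smad6, Smad7 and Tgif2, and for 1, Smad6, in knockdown cells. Over all 23891 genes with a usable locus these shares were 8.33% and 8.53%, and over the 11728 expressed genes 15.2% and 16.0%. Of all genes with a control peak, 55.7% also had a knockdown peak, against 1 of these 4. Each condition had 1 library of unknown depth and the lists differ in length (3561 control and 2919 knockdown peaks), so no test was possible and scores were read only within a list. The deposited score is the one MACS writes for a peak, with a lowest value of about 50.

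**Figure D4:**
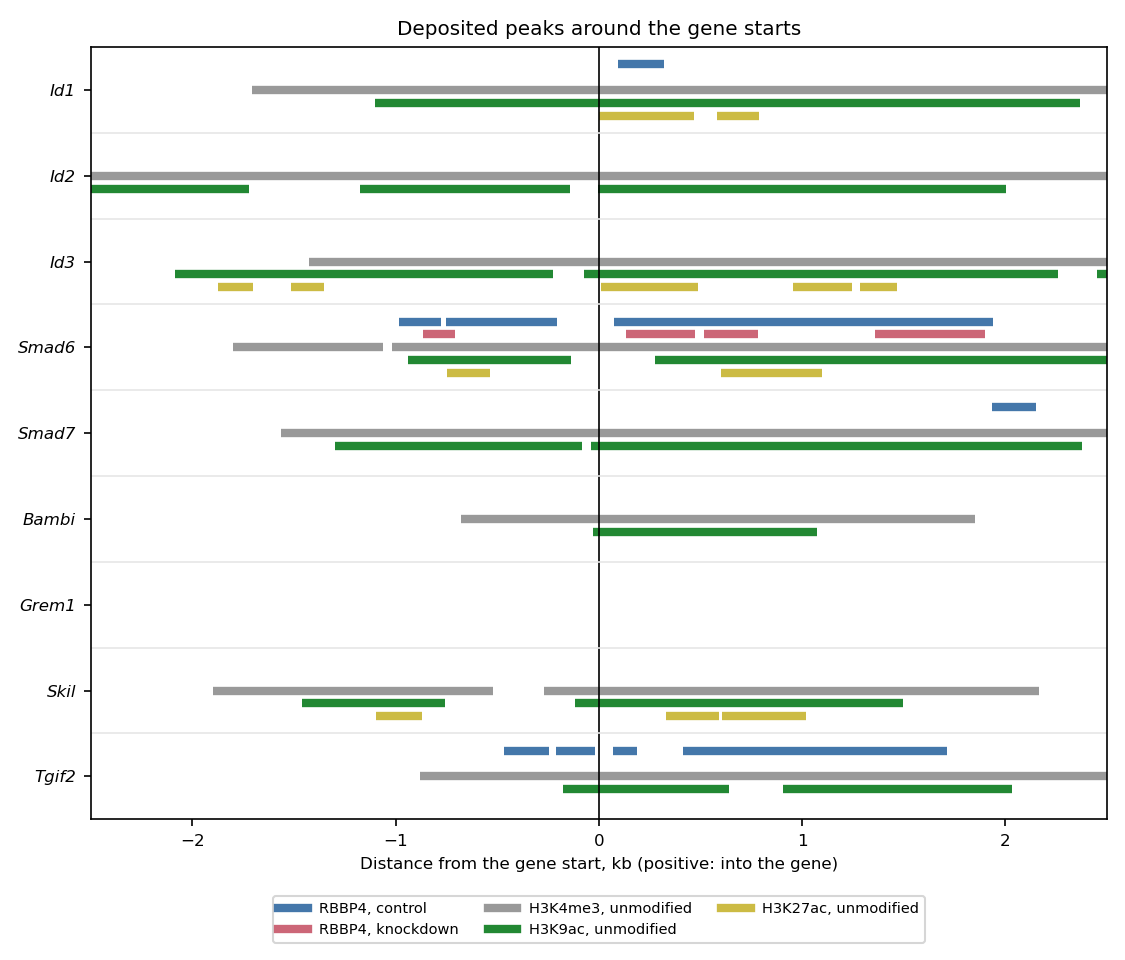
Deposited peaks with at least 1 bp within 2 kb of either locus end, by distance from the gene start in kb, positive into the gene. Shown are RBBP4 in control (blue) and knockdown (red) cells, and H3K4me3 (grey), H3K9ac (green) and H3K27ac (yellow) in unmodified cells. The axis ends at 2.5 kb, and peaks wholly outside the 2 kb windows are not drawn, such as an H3K27ac peak 2.32 kb from the Id2 start. Smad6 carries RBBP4 peaks in both conditions, Tgif2 4 peaks in control cells and none in knockdown cells, and Grem1 no peak of any kind.

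Smad6 held the strongest RBBP4 peak of the 9 genes. In control cells a peak of 1863 bp at chr9:63867929-63869791 (mm9) covered 75 to 1938 bp into the gene with a score of 1111.98, the 41st of 3561. Weaker control peaks lay before the start, at -753 to -204 bp (score 179.15) and at -985 to -776 bp (65.45). In knockdown cells the same stretch held 3 separate peaks inside the gene with scores of 282.64, 131.05 and 88.38, the highest at 1357 to 1901 bp, and 1 peak before the start with a score of 54.74. Smad6 was also the only listed gene with an MTA1 peak in control cells, at 1307 to 1482 bp into the gene (score 55.38, near the list's minimum), and no listed gene had an MTA1 peak in knockdown cells. Background shares for MTA1 were 2.04% and 2.19% of all genes and 3.65% and 3.89% of expressed genes.

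Tgif2, whose locus overlaps 5430405H02Rik, held 4 RBBP4 peaks in control cells and none in knockdown cells. Which of these genes the peaks belong to was not tested. The strongest, 1299 bp at chr2:156666155-156667453 (mm9), covered 412 to 1711 bp into the gene with a score of 771.4, the 77th of 3561. The others covered -469 to -247 bp, -209 to -20 bp and 72 to 187 bp from the start, with scores of 103.52, 64.26 and 62.37. The nearest knockdown peak was 167 kb away, where control cells also had a weak peak (score 57.53). Of 149 control peaks with a score of at least 500, a limit set after the values were seen, 3 (2.01%) had no knockdown peak within 2 kb, namely those at Tgif2, Sertad4 and Sirpa. By gene, 97.8% of the 134 genes with such a control peak had a knockdown peak. At a score of at least 100 the share without a knockdown peak was 20.2% of 1080. The labels do not say which clone gave the knockdown ChIP, so the peak lists cannot be set against the FPKM of a clone.

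The remaining control peaks were weak. At Id1 a peak covered 92 to 321 bp into the gene with a score of 61.24, and at Smad7 a peak of score 52.86 began 1935 bp into the gene, just inside the 2 kb window. Just outside it, the nearest control peak to Id2 lay 3.05 kb from the start with a score of 52.04. Bambi, Skil and Id3 had none within 28.6 kb of their starts. None of the 6 peaks of the sequential FLAG and RBBP4 ChIP lay near a listed gene, against 0.0335% of all and 0.0682% of expressed genes.

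In unmodified cells 8 of the 9 genes, all but Grem1, carried H3K4me3 and H3K9ac peaks, marks of active promoters. Background shares were 54.6% and 46.7% of all genes and 91.7% and 86.2% of expressed genes, so 8 of 9 is near the level of expressed genes. The H3K4me3 peak at each of the 8 starts had the score 3100, which 8591 peaks of that list share, so these scores do not rank the genes. H3K9ac peaks over or nearest to the starts did differ, from 65.57 at Tgif2, 150.16 at Smad6 and 300.2 at Bambi to 781.85 at Id1 and 1025.95 at Smad7. The Smad6 peak ended 135 bp before the start, and a stronger one (379.91) began 277 bp into the gene. H3K27ac, a mark of active promoters and enhancers, had peaks at 5 genes, against 36.4% of all and 64.9% of expressed genes. At Id1, Id3, Smad6 and Skil these lay within 2 kb of the start, and at Bambi 6485 to 6642 bp into the gene, near its other end. Just outside the window, Id2 had an H3K27ac peak 2.32 kb from its start with a score of 193.07. That score is above those at the 5 genes, of which the highest was 122.53 at Smad6. Grem1 had no peak in any list within 2 kb, and its nearest H3K27ac peak was 7.22 kb and its nearest H3K4me3 peak 87.3 kb from its start.

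The coverage table of unmodified and tagged cells lists regions that hold a peak of H3.3 or a NuRD subunit in at least 1 library. A gene was counted where such a region reached within 2 kb of either locus end and held any peak of that library. The place of the peak inside the region is not given, so it may lie outside the window. At Id2, for example, the region ran from -5847 to 1678 bp, and CHD4 covered 1.75% and MTA1 2.05% of it. Counted so, RBBP4 was near 8 of the 9 genes, all but Grem1 (45.5% of all and 79.0% of expressed genes). HDAC2 was near 7 (28.7% and 51.6%), MTA1 near Id1, Id2, Id3, Smad6 and Bambi (7.33% and 13.1%), HDAC1 near Id1, Id2, Id3 and Tgif2 (17.0% and 31.4%), CHD4 near Id1 and Id2 (6.17% and 11.2%) and MBD2/3 near Bambi (7.58% and 13.8%). Where a region had to be covered by at least 50%, the counts were 5 for RBBP4, 1 for HDAC2 and 0 for the other 4 subunits. By the same count of regions HA-H3.3 was near 7 genes in both replicates, all but Bambi and Grem1 (46.0% and 51.8% of all genes, 75.7% and 82.1% of expressed genes).

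Levels in the region over or nearest to each start are given in RPKM (reads scaled to region length and library size) with exact Poisson 95% intervals, which cover counting error only, and as a percentile among 11827 annotated promoter regions. Libraries held 6.62 to 24.1 M reads. Among these regions, those of Tgif2 and Id2 had the highest H3.3 of the 8 genes. At Tgif2 the replicates gave 6.97 (6.4 to 7.57) and 7.51 (7.00 to 8.05), the 91.8 and 97.5 percentiles. At Id2 they gave 7.35 (6.83 to 7.89) and 6.52 (6.10 to 6.96), the 93.0 and 94.7 percentiles, in a long region of 7525 bp. Other regions within 2 kb of a start were higher by value in the first replicate, with overlapping intervals. They were Smad7 at -1109 to -117 bp, with 7.58 (6.18 to 9.20), and Id3 at -3557 to -1778 bp, with 8.20 (7.10 to 9.43). In the second replicate both were lower, at 6.09 (5.01 to 7.34) and 4.77 (4.05 to 5.59). The region at the start of Bambi was at the other end, with 0.404 (0.110 to 1.03) and 0.597 (0.258 to 1.18), the 1.93 and 4.28 percentiles, from 4 and 8 reads. Its intervals lay below those of the region at each other start. The next were Id1 in the first replicate with 3.00 (2.5 to 3.58) and Smad6 in the second replicate with 3.27 (2.82 to 3.77). A second region of Bambi, 598 to 887 bp into the gene, had 1.53 (0.562 to 3.33) and 1.88 (0.904 to 3.46), from 6 and 10 reads. A Smad7 region at 1466 to 1816 bp had 0.421 (0.051 to 1.52) in the first replicate, near the Bambi value, and 2.02 (1.08 to 3.46) in the second.

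RBBP4 was highest by value at Smad6, at 5.53 RPKM (4.70 to 6.46, the 94.6 percentile), the gene that also had the strongest RBBP4 peak in control cells. The interval overlapped those of Id2 (4.70, 4.2 to 5.24) and Bambi (3.96, 2.59 to 5.80). HDAC2 was similar at Smad6 (4.35, 3.50 to 5.33) and Id2 (4.34, 3.78 to 4.95), the 91.7 and 91.6 percentiles, and the intervals overlapped. MTA1 was highest at Bambi by value (1.99, 1.13 to 3.22, from 16 reads), before Id2 (1.62, 1.36 to 1.92) and Smad6 (1.61, 1.22 to 2.09). The Bambi interval overlapped those of the regions at all other starts but Skil (0.444, 0.163 to 0.966). Bambi, whose region at the start had the least H3.3 of the 8 genes, had RBBP4 there at the 71.8 percentile. CHD4 at Smad7 rested on 3 reads (0.320, 0.0661 to 0.936).

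Among the regions over or nearest to the starts, Skil was highest by value for H3K27ac and H3K4me3, and Tgif2 was lowest by value for H3K27ac and H3K9ac. Skil had 2.94 RPKM of H3K27ac (2.31 to 3.69, the 92.2 percentile) and 20.7 of H3K4me3 (19.1 to 22.4, the 88.2 percentile), and these intervals overlapped those of Id1 for H3K27ac (2.17, 1.82 to 2.57) and of Smad7 for H3K4me3 (17.8, 16.2 to 19.6). Tgif2 had 0.914 of H3K27ac (0.752 to 1.10, the 25.7 percentile) and 1.27 of H3K9ac (1.09 to 1.48). Both intervals overlapped those of Bambi, which had 1.2 (0.710 to 1.89) of H3K27ac and 1.56 of H3K9ac, and the first also overlapped that of Smad7 (1.52, 1.04 to 2.15). For H3K9ac, Skil (4.50, 3.73 to 5.38) and Smad7 (4.24, 3.43 to 5.18) had overlapping intervals. Another region of Smad7 was higher by value than the Skil region for all 3 marks, with overlapping intervals. At 1466 to 1816 bp into the gene it had 3.47 RPKM of H3K27ac (2.25 to 5.12), 24.5 of H3K4me3 (21.3 to 28.1) and 6.51 of H3K9ac (4.83 to 8.58). The order therefore holds only for the regions at the starts. The regions also differ in length, 1225 bp at Skil and 5901 bp at Tgif2, and RPKM is an average over a region.

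**Figure D5:**
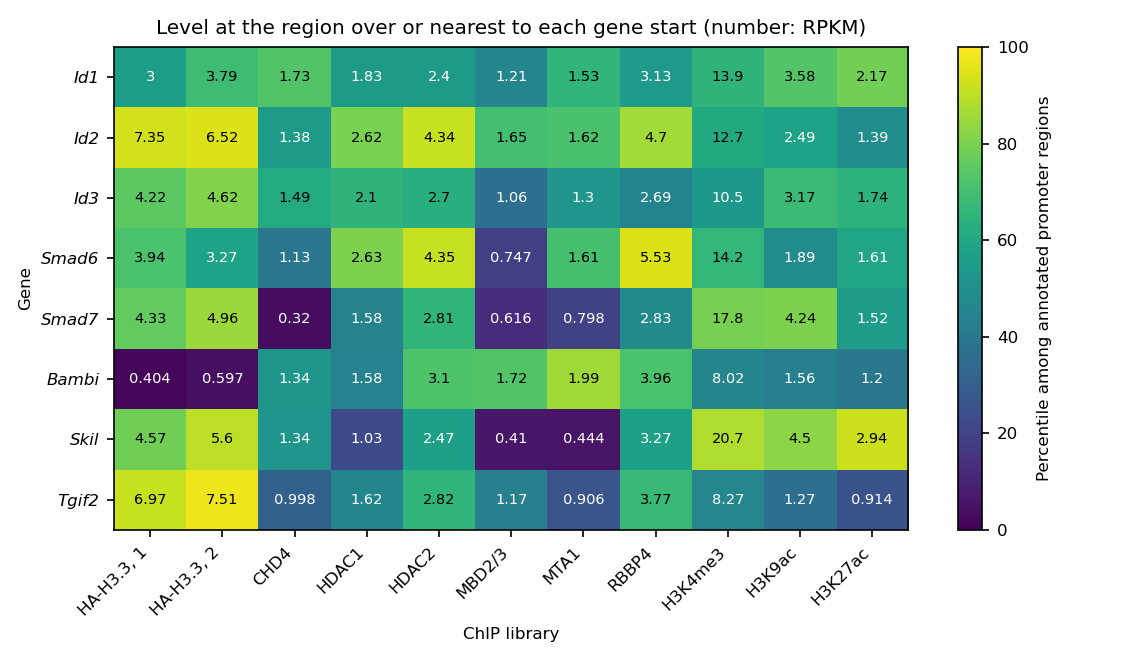
RPKM (numbers) in 11 ChIP libraries of unmodified or HA-H3.3 cells at the region over or nearest to each gene start, with colour giving the percentile among annotated promoter regions. Bambi is darkest in both HA-H3.3 columns (0.404 and 0.597), and Smad6 is bright for RBBP4 (5.53) and HDAC2 (4.35).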

How the data were processed

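The members and gene lists were chosen with earlier results of these data known. Per the submitters' processing notes, Bowtie, TopHat, Cufflinks, Cuffdiff, bedtools and MACS2 were used with build mm9, with no role given for each; all locus and peak coordinates are mm9 and 1-based. Expression was deposited by the authors as FPKM per gene with confidence bounds, per the file headers, with no batch, strand or counts; fragments were estimated from these bounds. Entries of a symbol were summed. Genes whose mean FPKM reached 1 were tested with limma 3.58.1 (lmFit, eBayes with trend, two-sided, Benjamini-Hochberg over 11728 genes) in R 4.3.3 on log2(FPKM + 1), a scale that understates changes of low genes; the script was first tested on simulated data. Region levels were deposited by the authors under RPKM headers but lie on a log2 scale, log2(RPKM + 1): read so, 100% of values under 100 reads came out whole within 0.05. The covered fraction of each region, from 0 to 1, is as deposited by the authors; neither table has an input column. Peak lists were deposited by the authors, 1 per library, with a score per peak that matches the one MACS writes, and the sequential ChIP list with a fold enrichment from MACS 2.1.1.20160309, per the file headers. A peak of the peak lists counted as near a gene when at least 1 bp lay within 2 kb of either locus end. For the covered fractions the whole region was placed by this rule, wherever in it the peak lay. Gene starts use the strand of the deposited annotation or of RefSeq. Named besides the 9 genes were the 3 genes of highest mean FPKM per list and, for each of the 9 whose highest and lowest log2(FPKM + 1) differed by over 1, the 2 genes of nearest profile; others are marked as chosen after their values were seen. Genes withheld from the text are counted in their lists, and their values are not reported here.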

Additional observations from a re-analysis of the deposited data

How the results depend on the processing

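None of the listed genes and none of the pathway genes passed the test under any of the 15 alternative settings in which they were tested. Grem1 lay below the minimum of the main test and has no difference given, and Bambi and Skil have no value under a mean FPKM of at least 5. Id2, Id3, Bambi, Skil and Tgif2 kept their direction throughout. With 1 clone left out the log2 difference ran from -0.68 to 1.00 for Id1, from -0.27 to 0.75 for Smad6 and from -0.79 to 0.63 for Smad7. Smad7 also turned to 0.087 with a pseudocount of 5, 0.079 with quantile normalization and 0.13 with median centring. The clone number as a replicate block, which leaves knockdown clone 3 without a partner, gave -0.46 for Id1 and -0.27 for Smad6. The numbers did not pair the clones (correlations of deviations across genes -0.25 and -0.095), and the block left 0 genes past the test in place of 4. All 4 rested on at most 2 estimated fragments, and a minimum of 20, an alternative chosen after seeing the data, left 0; with 1 clone left out the count ran from 5 (without knockdown clone 3) to 36 (without control clone 1). Listed genes with an RBBP4 control peak numbered 2 at a score of at least 100. For MTA1 in control cells the count was 0 within 1 kb, 2 within 5 kb and 0 at a score of at least 100, and in knockdown cells 1 within 5 kb. For H3K27ac it was 4 within 1 kb, 7 within 5 kb, 6 over the whole locus and 2 kb around it, and 4 at a score of at least 100. The cause of these changes was not tested. Apart from HA-H3.3, with 2 replicates, each ChIP has 1 library. Depth is unknown for the ChIP of control and knockdown cells and for the sequential ChIP. A peak that is not listed therefore does not show that the protein was absent, and intervals of levels cover counting error only.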
